A study of Mus musculus with 6 samples.

Results

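The chaperones and folding enzymes of the endoplasmic reticulum (ER) were examined in mouse hearts as 10 genes of the 27307 named on the array, *Hspa5*, *Hsp90b1*, *Pdia3*, *Pdia4*, *Pdia6*, *P4hb*, *Calr*, *Canx*, *Creld2* and *Manf*. They were measured by every non-control probe that the array annotation assigns to one of these symbols, 16 of 56605 probes, and the rule that picks these probes uses no measured value. The hearts came from male C57BL/6J *Clk4*-cKO mice, in which a floxed *Clk4* (*Clk4* fl/fl), a kinase gene, is deleted in cardiomyocytes by tamoxifen-inducible MerCreMer under the α-MHC promoter. Of these mice, 3 had received AAV NEXN-S437E and 3 AAV NEXN-WT, both AAV9 vectors made from a plasmid with a CMV promoter and a GFP reporter. NEXN-S437E is the cardiac Z-disc protein nexilin with a glutamate in place of a serine, which mimics phosphorylation, and NEXN-WT is its control. The deletion and the virus are thus common to both groups, hearts with intact *Clk4* were not analysed here, and the labels give no age. Each heart was hybridised to 1 single-colour Agilent array, and the question was how the phosphomimic changed transcript levels relative to the unmodified protein.

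Proteins that will be secreted, inserted in membranes or stored in the sarcoplasmic reticulum are folded in the ER. BiP, the product of *Hspa5*, holds unfolded chains, protein disulfide isomerases form and shuffle their disulfide bonds, and calnexin and calreticulin retain glycoproteins until they are folded. When unfolded chains exceed this capacity, the sensors PERK, IRE1 and ATF6 start the unfolded protein response, whose transcription factors raise the chaperone genes, and in the heart fibroblasts that secrete collagen carry a heavy folding load.

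ATF6 acts with NF-Y on the ER stress response element, ERSE, which reads CCAAT, then 9 bases of any kind, then CCACG. RefSeq promoter windows of 300 bases on GRCm38.p6, reaching from 250 bases before the transcription start to 50 after it, were found for 9 of the 10 members, and *Manf* was not matched. Searched on both strands, the element stood in 6 of the 9 windows, those of *Hspa5*, *Hsp90b1*, *Pdia6*, *Calr*, *Canx* and *Creld2*, and in 39 of all 32851 windows of that length (0.119%), which belong to 37 of 27025 genes (0.137%). The matches are shown 5′ to 3′ in the direction of transcription, in capitals with 5 flanking bases on each side, because they are the feature that most of these promoters share.
Hspa5, chr2:34772020-34772048, plus strand: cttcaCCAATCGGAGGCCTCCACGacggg
Hsp90b1, upstream match, chr10:86705633-86705661, minus strand: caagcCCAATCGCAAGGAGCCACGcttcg
Hsp90b1, downstream match, chr10:86705528-86705556, minus strand: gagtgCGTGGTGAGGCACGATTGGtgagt
Pdia6, chr12:17266486-17266514, plus strand: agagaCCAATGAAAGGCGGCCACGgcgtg
Calr, chr8:84847070-84847098, minus strand: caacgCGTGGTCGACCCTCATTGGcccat
Canx, chr11:50325795-50325823, minus strand: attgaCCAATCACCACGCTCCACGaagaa
Creld2, chr15:88819515-88819543, plus strand: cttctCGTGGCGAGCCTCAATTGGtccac

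In *Hspa5* the element lay nearest to the start, from 65 to 47 bases upstream, and *Hsp90b1* held 2, which ended 194 and 89 bases upstream. The element read backwards in *Calr*, in *Creld2* and in the second match of *Hsp90b1*. No window of *Pdia3*, *Pdia4* or *P4hb* held the whole element, although all 9 windows held its first part alone (CCAAT) and 8 of the 9 its second (CCACG), which 37.4% and 32.8% of all windows hold. The element ERSE-II (ATTGG, any 1 base and CCACG, in 0.0365% of windows), the core of the XBP1 site (TGACGTGG, in 0.676%) and the composite ATF4 site (TGATGNAAT, in 0.965%) were in none of the 9. These are matches of letters only, and binding was not measured.

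**Figure D1:**
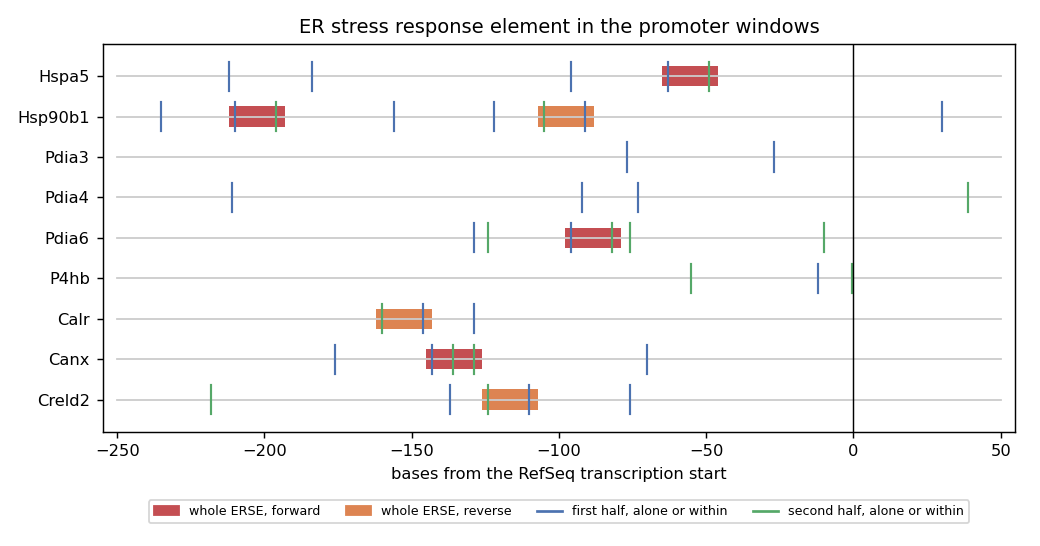
Positions of the ER stress response element in the promoter windows of the 9 matched members, in bases from the RefSeq transcription start on the horizontal axis. Filled blocks are whole elements (red forward, orange reverse) and thin lines are matches to its first part (blue) or second part (green), so 6 genes carry a block and *Pdia3*, *Pdia4* and *P4hb* carry thin lines only.

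Levels are log2 of the background-subtracted signal minus the 75th percentile of the same array, so that a value of 0 is the 75th percentile of that array. All 6 arrays were on 1 slide and in 1 scan. The spots well above background made up 41.9% to 47.8% of each array, and the 75th percentile of the signal ranged from 110 to 273, with NEXN-WT replicate 1 the highest. That array stood apart from the rest, with a mean absolute difference of 0.38 to 0.56 from the other 5 against 0.19 to 0.33 among them. Of the targeted genes, the *Clk4* probe that could be tested (A_52_P445387) differed by 0.13 between the groups (SE 0.18, adjusted p = 0.706, limma), and the *Nexn* probes differed by 0.02 and 0.14 (adjusted p = 0.977 and 0.737, limma).

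No probe of the ER chaperones passed the adjusted threshold, and their differences ran from −0.39 on the log2 scale, for 1 of the 2 *Pdia3* probes, to 0.40, for *Canx*. With limma and Benjamini-Hochberg adjustment over all 22998 tested probes, 0 of the 15 member probes that passed the detection filter were called, against 37 probes (0.161%) in the whole table. At an unadjusted p under 0.05, 1 of the 15 was lower in NEXN-S437E, where 6.7% of all probes were, and 0 were higher, where 10.5% were. The methods' t-test on the same values called 2 lower (5.16% of all probes were) and 1 higher (8.50%) at the unadjusted threshold and 0 after adjustment. Of the 15 differences, 8 were negative and 7 positive, and the 95% intervals of 14 lay within a 2-fold change in either direction. None of the 15 was both past this threshold and changed by at least 2-fold, which 2.52% of all probes were. Groups did not overlap for 2 probes that were lower (9.17% of all probes) and 2 that were higher (18.7%). In whole heart tissue, fewer cells of a type and less RNA per cell cannot be told apart.

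**Figure D2:**
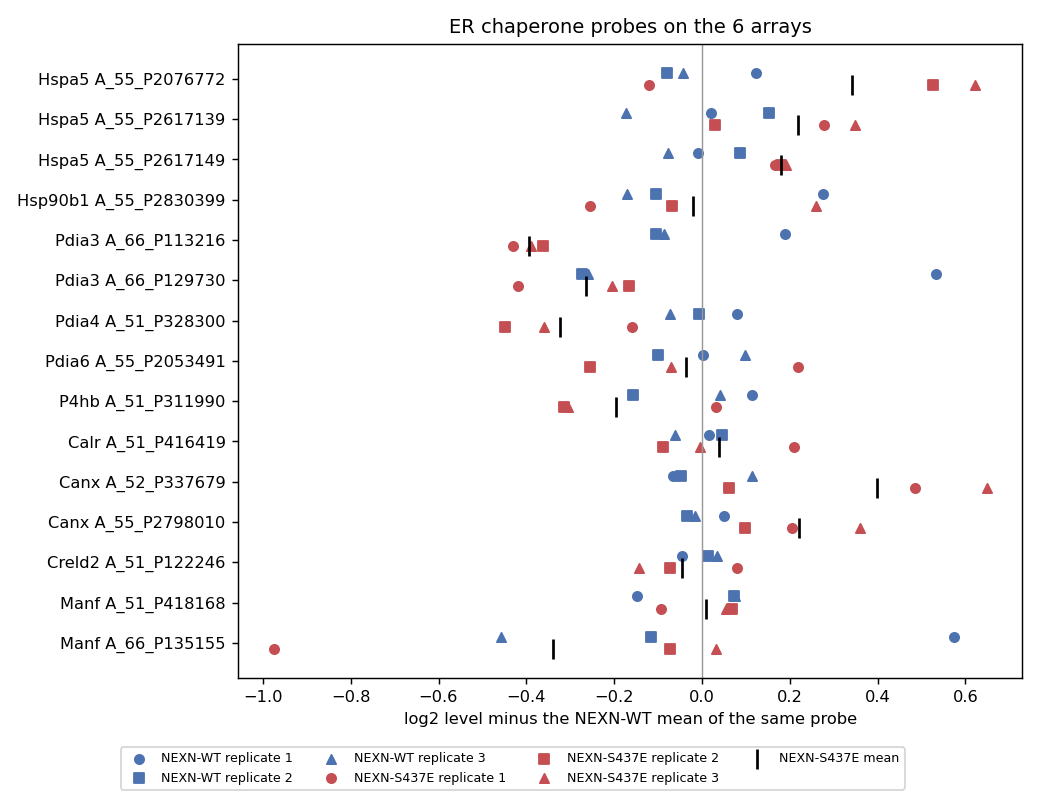
Level of each of the 15 tested member probes on each of the 6 arrays, as the log2 difference from the NEXN-WT mean of that probe. Blue symbols are NEXN-WT, red symbols NEXN-S437E, shapes give the replicate and the black bar is the NEXN-S437E mean, and the red symbols lie on both sides of the zero line.

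*Hspa5* encodes BiP, the ER member of the Hsp70 family and the protein that keeps the stress sensors inactive, and 3 probes measured it. Probe A_55_P2076772 (mm9, chr2:34631913-34631972) read 5.64, 5.44 and 5.47 in NEXN-WT and 5.39, 6.04 and 6.14 in NEXN-S437E. NEXN-S437E replicates 2 and 3 were above every NEXN-WT heart, but replicate 1 was the lowest of all 6, so the groups overlapped. The difference was 0.34 (SE 0.21, 95% interval −0.15 to 0.84, adjusted p = 0.422, limma). It was 0.11 on the deposited and on the quantile-normalized values and 0.20 without NEXN-S437E replicate 3. Without NEXN-S437E replicate 1 it was 0.57 (adjusted p = 0.251, limma), with array weights it was 0.59 (adjusted p = 0.0269, limma), and with the row of the slide as a block, which leaves replicate 1 to stand for its group beside the NEXN-WT arrays, it was −0.12.

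The other *Hspa5* probes lay upstream in the gene and gave smaller differences. Probe A_55_P2617139 read 4.13, 4.27 and 3.94 in NEXN-WT and 4.39, 4.14 and 4.46 in NEXN-S437E, which overlapped, and differed by 0.22 (SE 0.16, adjusted p = 0.490, limma). Probe A_55_P2617149, whose match spans 377 bases of the mm9 genome, read 2.72, 2.82 and 2.66 in NEXN-WT and 2.90, 2.91 and 2.92 in NEXN-S437E. Here the 3 NEXN-S437E hearts were all higher and nearly alike, and the difference of 0.18 (SE 0.13, adjusted p = 0.495, limma) had an exact two-sided permutation p = 0.1, the smallest that 3 against 3 arrays can give. On the deposited values the difference was 0.097 and the groups overlapped. All 3 *Hspa5* probes were on the positive side, with pairwise correlations over the 6 arrays of 0.27, 0.54 and 0.81.

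*Hsp90b1* encodes GRP94, the Hsp90 of the ER, which folds integrins and other client proteins. Its probe (mm9, chr10:86153693-86153752) read 5.44, 5.06 and 4.997 in NEXN-WT and 4.91, 5.10 and 5.43 in NEXN-S437E. Each group held 1 high heart, and the difference was −0.02 (SE 0.19, 95% interval −0.47 to 0.43, adjusted p = 0.963, limma). The promoters of *Hspa5* and *Hsp90b1* both carry the ERSE shown above.

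The main probes of the protein disulfide isomerases, those of the highest mean, were all on the negative side in the main analysis, with a median difference of −0.23 over 4 genes. Across all 13747 tested genes, taken with 1 probe each, 40.8% had a negative difference and the median was 0.07. None of these 4 probes passed the unadjusted threshold, which 7.91% of all genes passed downward. Without NEXN-WT replicate 1 the median was −0.09, with 3 of the 4 negative, as they also were with array weights (−0.09), with NEXN-WT replicate 3 left out (−0.27) or NEXN-S437E replicate 2 left out (−0.20). With the slide row as a block it was −0.06, with 2 negative.

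*Pdia3* encodes ERp57, the isomerase that works with calnexin and calreticulin on glycoproteins. Probe A_66_P113216 (mm9, chr2:121258023-121258082) read −0.40, −0.69 and −0.67 in NEXN-WT and −1.02, −0.95 and −0.98 in NEXN-S437E. All NEXN-S437E hearts were lower and close to each other, and the difference of −0.39 (SE 0.15, 95% interval −0.73 to −0.06) was the only one of a member past the unadjusted threshold, with an adjusted p = 0.242 (limma). Leaving out NEXN-S437E replicate 1, 2 or 3 gave −0.38, −0.41 and −0.40, none of them past the unadjusted threshold, and the same held without a filter on dim probes (−0.39), with the replicate number as a block (−0.39) and with the slide row as a block (−0.43).

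The second *Pdia3* probe, A_66_P129730, starts 5320 bases further along the gene and read 3.28, 2.47 and 2.48 in NEXN-WT and 2.32, 2.58 and 2.54 in NEXN-S437E. NEXN-WT replicate 1 alone was high, and the other 5 hearts lay within a narrow range. The difference was −0.26 (SE 0.24, adjusted p = 0.565, limma), and it was 0.00 without that array. The 2 probes had a correlation of 0.78 over the 6 arrays.

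*Pdia4*, which encodes ERp72, was the other isomerase without overlap between the groups. Its probe (mm9, chr6:47746516-47746575) read 0.48, 0.40 and 0.33 in NEXN-WT and 0.24, −0.04 and 0.05 in NEXN-S437E. The 3 NEXN-S437E hearts were all lower, with replicate 1 close to the NEXN-WT range, and the difference was −0.32 (SE 0.15, 95% interval −0.66 to 0.01, adjusted p = 0.302, limma). It passed the unadjusted threshold under 7 of 18 alternative settings, the deposited normalized values among them (−0.33, adjusted p = 0.312, limma), and stayed negative under all 18, between −0.40 and −0.16. With array weights it passed the adjusted threshold (−0.36, adjusted p = 0.0362, limma).

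*P4hb* encodes PDI itself, which is also the β subunit of the prolyl 4-hydroxylase that hydroxylates collagen. Probe A_51_P311990 (mm9, chr11:120422076-120422135) read 4.11, 3.84 and 4.04 in NEXN-WT and 4.03, 3.68 and 3.69 in NEXN-S437E. Replicates 2 and 3 of NEXN-S437E were the lowest and replicate 1 lay among the NEXN-WT hearts, with a difference of −0.20 (SE 0.16, adjusted p = 0.534, limma). The *P4hb* difference was −0.31 without that replicate, −0.32 on the deposited values and −0.31 with normexp background correction, where it passed the unadjusted threshold. It was −0.14 without NEXN-S437E replicate 2 or 3 or NEXN-WT replicate 1. Its other probe, A_55_P2740221, could not be tested, since no array showed it well above background. *Pdia6*, an isomerase that also acts on the sensors IRE1 and PERK (mm9, chr12:17291070-17291129), read 5.95, 5.85 and 6.05 against 6.17, 5.70 and 5.88 and differed by −0.04 (SE 0.17, adjusted p = 0.922, limma), with NEXN-S437E replicate 1 the highest and replicate 2 the lowest of the 6.

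Of the lectin chaperones, calnexin had the largest positive difference among the members. *Canx* probe A_52_P337679 (mm9, chr11:50108047-50108106) read 5.36, 5.38 and 5.54 in NEXN-WT and 5.91, 5.49 and 6.08 in NEXN-S437E. Replicates 1 and 3 of NEXN-S437E were the highest and replicate 2 lay inside the NEXN-WT range, and the difference was 0.40 (SE 0.18, 95% interval −0.02 to 0.82, adjusted p = 0.308, limma). Without NEXN-S437E replicate 2 it was 0.57 (adjusted p = 0.391, limma), and with the deposited normalized values it was 0.19.

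The second *Canx* probe, A_55_P2798010, starts 490 bases away and followed the first closely over the arrays, with a correlation of 0.91. It read 5.14, 5.06 and 5.07 in NEXN-WT and 5.29, 5.19 and 5.45 in NEXN-S437E. All NEXN-S437E hearts were higher, and the difference was 0.22 (SE 0.14, adjusted p = 0.430, limma; exact permutation p = 0.1). On the deposited values it was 0.028 and the groups overlapped. *Calr*, the soluble relative of calnexin that also buffers ER calcium (mm9, chr8:87366192-87366251), read 4.48, 4.51 and 4.41 against 4.68, 4.38 and 4.46. Its difference of 0.04 (SE 0.15, 95% interval −0.30 to 0.37, adjusted p = 0.903, limma) became −0.12 with the deposited values, so no direction can be given.

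*Creld2* and *Manf* encode small ER proteins that are induced and secreted under ER stress, and *Manf* is also a protective factor in the heart. The *Creld2* probe (mm9, chr15:88656997-88657056) read 4.37, 4.43 and 4.45 in NEXN-WT and 4.50, 4.35 and 4.27 in NEXN-S437E, a difference of −0.05 (SE 0.14, adjusted p = 0.877, limma). On the deposited values it was −0.20 and the NEXN-S437E hearts were all lower, without overlap. The main *Manf* probe, A_51_P418168 (mm9, chr9:106791278-106791337), read 2.79, 3.01 and 3.01 in NEXN-WT and 2.84, 3.00 and 2.99 in NEXN-S437E. These were the narrowest members, with ranges of 0.22 over all 6 hearts for each gene, and the difference for *Manf* was 0.01 (SE 0.14, 95% interval −0.32 to 0.34, adjusted p = 0.978, limma).

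The other *Manf* probe did not follow the first. Probe A_66_P135155, which starts 1227 bases away, read 1.31, 0.62 and 0.28 in NEXN-WT and −0.24, 0.67 and 0.77 in NEXN-S437E. Its range of 1.55 was the widest of the members, set by NEXN-WT replicate 1 at the top and NEXN-S437E replicate 1 at the bottom, and its correlation with the first probe was −0.14. The difference was −0.34 (SE 0.34, 95% interval −1.12 to 0.44, adjusted p = 0.608, limma), and it was −0.05 without the first of these arrays and −0.02 without the second, but −0.57 without NEXN-WT replicate 3 and −0.52 without NEXN-S437E replicate 3. With the slide row as a block it was −0.97 and passed the unadjusted threshold (adjusted p = 0.485, limma).

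**Figure D3:**
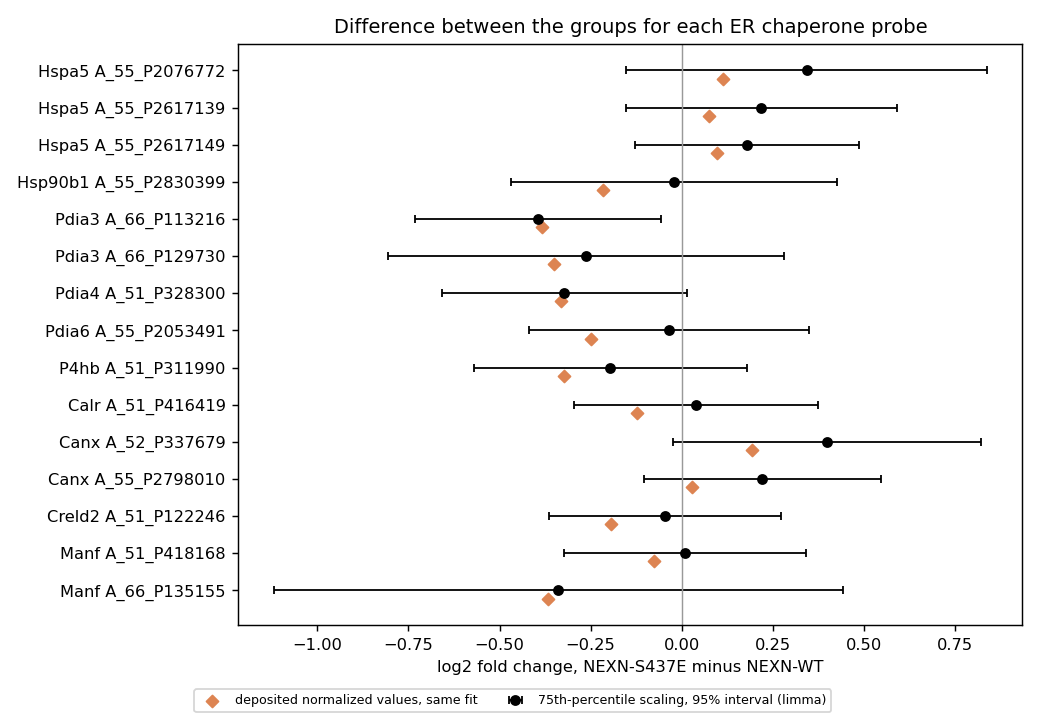
Difference between NEXN-S437E and NEXN-WT for the 15 tested member probes as log2 fold change on the horizontal axis, with 95% intervals from limma (black) and the same fit on the deposited normalized values (orange). The interval of *Pdia3* probe A_66_P113216 is the only one that does not reach 0, and the orange points lie to the left of the black ones for every probe but this one.

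Normalization moved the members together. On the deposited normalized values 8 of the 10 main probes were negative, with a median of −0.21, against 6 of 10 and −0.03 on the scale used above. Quantile normalization gave the same 8 of 10 and −0.21. The same step moved the whole table, from 1542 lower and 2423 higher probes at the unadjusted threshold to 1869 lower and 1764 higher with quantile normalization. The median over all tested probes moved less than that of the members, from 0.09 to 0.02 with quantile normalization and with the deposited values. Among the main probes within 0.05 of 0, *Calr* and *Manf* turned negative on both scales, while *Hsp90b1* (−0.22), *Pdia6* (−0.25) and *Creld2* (−0.20) stayed negative on both. Each of these 3 changed sign when some single array was left out.

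The members did not vary as 1 unit across the hearts. Over the 45 pairs of genes the median correlation of their main probes over the 6 arrays was −0.15, and 22 pairs were positive. These arrays share a slide and a scaling, and 6 points describe the pattern only. NEXN-WT replicate 1 held the highest level for 6 of the 15 probes, NEXN-S437E replicate 3 for 5, NEXN-S437E replicate 1 for 3 and NEXN-WT replicate 3 for 1. The mean over the 10 main probes read 4.19, 4.04 and 4.08 in NEXN-WT and 4.10, 4.03 and 4.15 in NEXN-S437E, a spread within the groups as large as that between them. The genes whose main probe, of those well above background on all 6 arrays, followed this mean most closely were *Gm13154* (r = 0.99), *Brdt* (0.98), *Zfp943* (0.98), *Zfp758* (0.98) and *2210404O09Rik* (0.97), and none of them differed between the groups by more than 0.22.

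The other 10 genes with an ERSE that could be tested gave 1 higher (*Acacb*, 0.45, SE 0.19, adjusted p = 0.286, limma) and 0 lower, where 10.1% and 7.91% of all genes were, with a median of 0.01, and the 6 members with the element gave 0 and 0 and the same median of 0.01. *Acacb*, which encodes a mitochondrial acetyl-CoA carboxylase, is no ER protein, and it did not pass without NEXN-WT replicate 1 (0.29) or 3 (0.47) or NEXN-S437E replicate 2 or 3 (0.40 for each). *Dnajc3*, a BiP co-chaperone with an ERSE, differed by −0.28 (adjusted p = 0.432, limma).

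The rest of the secretory pathway was followed through 11 lists with 186 genes, of which 178 were tested. In these lists 8 genes were higher and 31 lower at the unadjusted threshold, with a median of −0.08, against 10.1% higher, 7.91% lower and a median of 0.07 over all 13747 genes, and 0 passed the adjusted threshold, as 0.204% of all genes did. Most of the lower genes were in 1 list, the cargo. Higher and lower in the counts of these lists mean past the unadjusted threshold, and each named gene is 1 of the 3 with the smallest p-values of its list unless said otherwise.

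Among the ER co-chaperones, which regulate or assist BiP, 2 of 15 were higher and 0 lower, with a median of 0.01. *Dnajb9*, which encodes the co-chaperone ERdj4, read 2.66, 2.79 and 2.92 in NEXN-WT and 3.16, 3.24 and 3.18 in NEXN-S437E, without overlap, and was higher by 0.40 (SE 0.14, adjusted p = 0.223, limma). *Cdnf*, the relative of *Manf*, was higher by 0.37 (adjusted p = 0.278, limma). *Sec63*, which joins BiP to the translocon, differed by −0.28 (adjusted p = 0.408, limma). Leaving out 1 array, *Dnajb9* stayed between 0.38 and 0.41 where it did not pass (NEXN-WT replicate 2 and NEXN-S437E replicates 2 and 3), and *Cdnf* passed only without NEXN-WT replicate 3.

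Of 12 other disulfide and oxidation enzymes 1 was lower and 0 higher, with a median of −0.07. Without NEXN-WT replicate 1 the median was 0.0042, 7 of the 12 were positive and 0 were lower. *Txndc5*, an isomerase that is abundant in fibroblasts, read 3.01, 2.18 and 2.14 in NEXN-WT and 1.83, 1.95 and 1.84 in NEXN-S437E and was lower, with a difference of −0.57 (SE 0.24, adjusted p = 0.278, limma), with NEXN-WT replicate 1 well above the rest. Without that array its difference was −0.29 and did not pass, nor did it pass without any 1 of the NEXN-S437E arrays (−0.61 to −0.55). *Qsox1*, a sulfhydryl oxidase, differed by −0.35 (adjusted p = 0.322, limma) and *Tmx1*, a membrane-bound isomerase, by 0.25 (adjusted p = 0.391, limma).

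In the glycan and lectin cycle, where calnexin and calreticulin act, 2 of 19 genes were lower and 1 higher, the median being −0.10 (−0.16 without NEXN-S437E replicate 1, and −0.18 on the deposited values, where 0 were higher). *Edem1* and *Edem3*, which trim mannose from misfolded glycoproteins and send them to degradation, were lower, with differences of −0.51 (SE 0.14, adjusted p = 0.174, limma) and −0.47 (SE 0.18, adjusted p = 0.259, limma). *Edem1* read 0.95, 0.74 and 0.75 in NEXN-WT and 0.24, 0.41 and 0.27 in NEXN-S437E. *Ost4*, a subunit of the oligosaccharyltransferase, read 4.27, 4.25 and 4.28 against 4.70, 4.58 and 4.61 and was higher by 0.37 (SE 0.13, adjusted p = 0.234, limma). None of these 3 genes overlapped between the groups. *Edem1* passed whichever array was left out. *Edem3* did not pass without NEXN-WT replicate 1 (−0.30) or any 1 of the NEXN-S437E arrays, and *Ost4* did not without NEXN-WT replicate 2 or any 1 of the NEXN-S437E arrays (0.33 to 0.39).

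ER-associated degradation, which returns misfolded proteins to the cytosol, had 2 of 15 genes higher and 0 lower, with a median of 0.01. *Herpud1*, a stress-induced part of the degradation complex whose promoter holds an ERSE-II, read 4.69, 5.18 and 5.003 in NEXN-WT and 5.53, 5.57 and 5.38 in NEXN-S437E and was higher by 0.54 (SE 0.17, adjusted p = 0.1996, limma). *Ube2j1*, its ubiquitin-conjugating enzyme, was higher by 0.44 (adjusted p = 0.251, limma), and *Derl2*, which encodes a channel component, differed by 0.33 (adjusted p = 0.324, limma). *Herpud1* passed whichever array was left out, and *Ube2j1*, at 0.29 without NEXN-WT replicate 1, did not pass without any 1 of the NEXN-S437E arrays (0.43 to 0.45).

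Of the genes for entry into and exit from the ER, 1 passed the unadjusted threshold. None of 22 translocon and signal peptidase genes passed in either direction, with a median of 0.12 (0.05 on the deposited values, and 0.07 without NEXN-WT replicate 3, where 2 were higher and 1 lower), and the smallest p-values were those of *Srpr* (0.34, adjusted p = 0.302), *Spcs3* (−0.36, adjusted p = 0.316) and *Sec61g* (0.34, adjusted p = 0.342, limma for each). Of 19 genes of the COPII coat and ER export, 1 was lower and 0 higher, with a median of −0.03. That gene was *Kdelr3*, a receptor that returns escaped chaperones with a KDEL end to the ER, which read 1.89, 1.21 and 1.57 in NEXN-WT and 0.67, 0.54 and 0.60 in NEXN-S437E and was lower, with a difference of −0.95 (SE 0.19, adjusted p = 0.109, limma). Its relative *Kdelr2* differed by −0.26 (adjusted p = 0.396) and *Sar1b*, the GTPase of the coat, by 0.39 (adjusted p = 0.324, limma for both).

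Among the sensors and transcription factors of the unfolded protein response 2 of 13 genes were lower and 0 higher, the median being −0.15. *Creb3l2*, a factor that raises the export machinery of collagen-secreting cells, read 4.11, 3.42 and 3.20 in NEXN-WT and 2.79, 2.59 and 2.66 in NEXN-S437E and was lower, with a difference of −0.90 (SE 0.24, adjusted p = 0.156, limma). *Eif2ak3*, which encodes the sensor PERK, was lower, with a difference of −0.49 (SE 0.19, adjusted p = 0.248, limma), and *Mbtps1*, a protease that activates ATF6, differed by −0.27 (adjusted p = 0.349, limma). *Creb3l2* passed whichever array was left out, and *Eif2ak3* did not without NEXN-WT replicate 1 (−0.33), NEXN-S437E replicate 1 (−0.47) or NEXN-S437E replicate 2 (−0.42).

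Of 11 targets of the PERK and ATF4 arm 3 were lower and 1 higher, the median being −0.23. *Gdf15*, a secreted stress cytokine, read 3.72, 1.48 and 1.42 in NEXN-WT and 0.25, −0.49 and −0.37 in NEXN-S437E and was lower, with a difference of −2.41 (SE 0.57, adjusted p = 0.134, limma), with NEXN-WT replicate 1 far above the other 5. *Phgdh*, the first enzyme of serine synthesis, was lower, with a difference of −0.78 (adjusted p = 0.171), and *Vldlr*, a lipoprotein receptor, was higher by 0.52 (adjusted p = 0.221, limma for both). *Gdf15* and *Phgdh* passed whichever array was left out, and *Vldlr* did not without NEXN-S437E replicate 2 (0.46) or 3 (0.42).

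**Figure D4:**
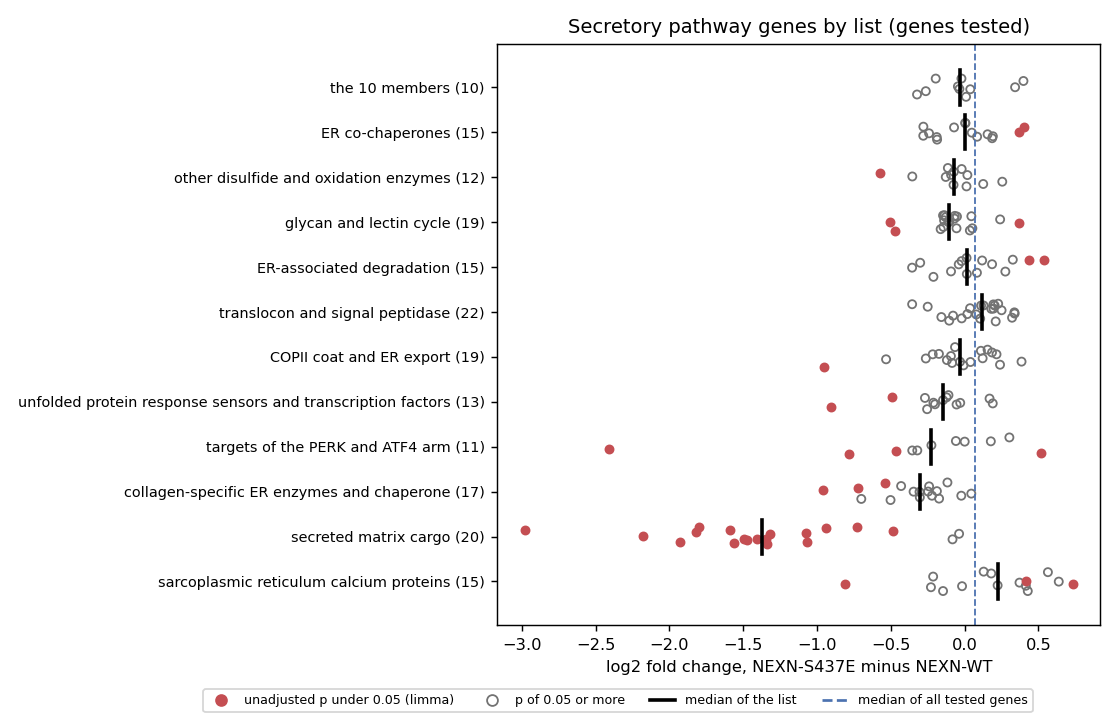
Log2 fold change (NEXN-S437E minus NEXN-WT) of every tested gene of the 10 members and of the 11 secretory pathway lists, with the number of genes in brackets. Filled red points passed an unadjusted p of 0.05, black bars are list medians and the dashed line is the median of all tested genes (0.07), and the cargo list, at a median of −1.37, is the one displaced far to the left.

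The largest differences of the pathway lay in what it carries. Of 20 secreted matrix proteins 18 were lower and 0 higher, all 20 differences were negative and the median was −1.37. The groups did not overlap for the 18, where 11.2% of all genes were lower without overlap and 19.3% higher. This list was chosen with earlier results of these data known, so its counts are a description and no test. *Col1a1*, the main chain of type I collagen, read 6.94, 5.97 and 5.69 in NEXN-WT and 4.49, 4.29 and 4.36 in NEXN-S437E and was lower, with a difference of −1.82 (SE 0.30, adjusted p = 0.0815, limma). *Col3a1* (−1.34, SE 0.22, adjusted p = 0.0815, limma) was lower as well, and so was the matrix glycoprotein *Fbln1*, with a difference of −1.59 (SE 0.26, adjusted p = 0.0799, limma). *Postn*, which encodes periostin, had the largest difference, −2.98 (SE 0.62, adjusted p = 0.112, limma), and read 6.18, 3.54 and 3.74 in NEXN-WT and 1.48, 1.40 and 1.63 in NEXN-S437E. On the percentile scale *Sparc* (−0.04) and *Dcn* (−0.08), the remaining cargo genes, did not pass. In NEXN-S437E no array showed *Col5a2* well above background. A floor was taken as the mean over those arrays of the lowest level of any probe well above background. With its level there set at this floor, *Col5a2* was 3.03-fold lower, against a NEXN-WT mean that includes the high replicate 1. Probes not well above background can read above the floor, so this is no strict minimum. The measured difference had an adjusted p = 0.224 (limma), and the median was the same with this gene at the floor. *Col5a2* entered the test only through NEXN-WT, and of the 19 cargo genes well above background on all 6 arrays 17 were lower, the median being −1.34.

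NEXN-WT replicate 1 had the highest cargo. The mean over the 20 genes, set against each gene's NEXN-WT mean, was 0.73, −0.33 and −0.40 in NEXN-WT and −1.23, −1.43 and −1.34 in NEXN-S437E. Without NEXN-WT replicate 1 the median was −1.04, 17 of 20 passed the unadjusted threshold and 8 passed the adjusted one. With the row of the slide as a block, a fit that sets NEXN-S437E replicate 1 alone against the 3 NEXN-WT arrays, 13 were lower and the median was −1.33.

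The collagen-specific ER enzymes and the collagen chaperone stood between the cargo and the general chaperones. Of 17 genes 3 were lower, 0 were higher, 16 differences were negative and the median was −0.30. *P3h2* and *P3h3*, prolyl 3-hydroxylases of collagen, were lower, with differences of −0.96 (SE 0.26, adjusted p = 0.159, limma) and −0.72 (SE 0.24, adjusted p = 0.213, limma). *P4ha1*, the catalytic partner of *P4hb* in prolyl 4-hydroxylase, read 1.17, 1.39 and 0.95 in NEXN-WT and 0.69, 0.74 and 0.45 in NEXN-S437E and was lower, with a difference of −0.54 (SE 0.17, adjusted p = 0.1996, limma). *P3h2* passed whichever array was left out, *P3h3* was −0.45 without NEXN-WT replicate 1 and still passed, and *P4ha1* did not pass without NEXN-WT replicate 2 (−0.43) or NEXN-S437E replicate 3 (−0.46). With quantile normalization 7 of the 17 passed downward, with normexp 8 and without NEXN-WT replicate 3 again 7.

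**Figure D5:**
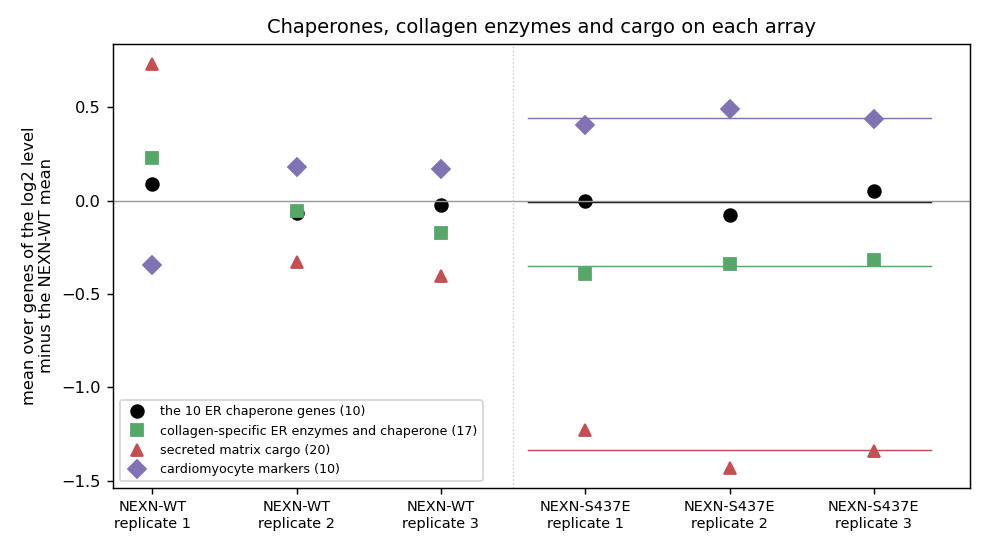
Mean over the genes of a list of the log2 level minus each gene's NEXN-WT mean, on each of the 6 arrays. Black circles are the 10 ER chaperone genes, green squares the 17 collagen-specific ER genes, red triangles the 20 cargo genes and violet diamonds 10 cardiomyocyte markers, and thin lines are NEXN-S437E means. On this percentile scale the chaperones stay between −0.08 and 0.09 on every array (−0.22 to 0.22 on the deposited values) while the cargo reaches −1.43.

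Set side by side on the same arrays, the mean of the 10 chaperone genes ran from −0.06 to 0.09 in NEXN-WT and from −0.08 to 0.05 in NEXN-S437E. The collagen-specific ER genes ran from −0.17 to 0.23 and from −0.39 to −0.32, and the cargo from −0.40 to 0.73 and from −1.43 to −1.23. The isomerase members ran from −0.13 to 0.18 and from −0.30 to −0.08, which overlapped. The sensors and factors of the unfolded protein response ran from −0.05 to 0.08 and from −0.22 to −0.17, and the targets of PERK and ATF4 from −0.19 to 0.21 and from −0.41 to −0.28. The means of the chaperone genes thus overlapped between the groups, while those of the cargo, the collagen-specific genes and both stress-response lists did not. With each gene left out in turn, a check chosen after seeing the data, the PERK and ATF4 targets overlapped once *Gdf15* was left out (−0.13 to 0.08 and −0.19 to −0.06), so their separation rested on this 1 gene, and the other 3 lists did not overlap whichever gene was left out. The isomerases no longer overlapped once *Pdia6* was left out (−0.15 to 0.24 and −0.31 to −0.18).

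The contrast in medians between the chaperones and the stress sensors depended on the scale. The deposited values were a setting added after seeing the data. On them the means of the 10 chaperone genes ran from −0.13 to 0.22 in NEXN-WT and from −0.22 to −0.08 in NEXN-S437E and still overlapped. The isomerases did not (−0.16 to 0.29 and −0.41 to −0.20), nor did *Creld2* with *Manf* (−0.03 to 0.02 and −0.16 to −0.11). The other disulfide enzymes, the glycan and lectin cycle and the COPII genes, which overlapped on the percentile scale, did not overlap either. *Hspa5* with *Hsp90b1* and *Calr* with *Canx* overlapped on the deposited values. So did the co-chaperone, degradation and translocon lists. The median difference there was −0.21 for the chaperone genes and −0.21 for the sensors and factors of the unfolded protein response, against −0.03 and −0.15 on the percentile scale. The cargo (−0.52 to 0.91 and −1.60 to −1.43) and the collagen-specific genes (−0.22 to 0.31 and −0.48 to −0.39) did not overlap between the groups on that scale either. Medians of the ER co-chaperones (−0.04), ER-associated degradation (0.0032) and COPII genes (−0.11) were lower there as well.

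The sarcoplasmic reticulum is the specialised ER of the cardiomyocyte, and 15 of its listed calcium proteins were tested. At the unadjusted threshold, which 10.1% of all genes passed upward and 7.91% downward, 2 were higher and 1 lower (0 after adjustment), with a median of 0.22 (0.07 when NEXN-WT replicate 1 was left out and 0.45 when replicate 3 of that group was), and on the deposited or quantile-normalized values 0 were higher. *Hrc*, a calcium-binding protein of its lumen, read 6.19, 7.20 and 7.06 in NEXN-WT and 7.61, 7.41 and 7.63 in NEXN-S437E and was higher by 0.73 (SE 0.26, adjusted p = 0.232, limma). *Atp2a2*, the calcium pump, was higher by 0.42 (SE 0.17, adjusted p = 0.267, limma). *Rcn3*, a calcium-binding protein that resides in the ER of secreting cells, was lower, with a difference of −0.81 (SE 0.22, adjusted p = 0.162, limma). *Rcn3* passed whichever array was left out. *Hrc* was 0.42 without NEXN-WT replicate 1 and did not pass without NEXN-S437E replicate 1 or 3 (0.70 for each), and *Atp2a2* did not pass without NEXN-WT replicate 1 (0.29) or 3 (0.45) or NEXN-S437E replicate 2 (0.42) or 3 (0.35).

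Markers of several cell types differed between the groups alongside these lists. Cardiomyocyte markers were high on every array, with 4 of 10 higher and a median of 0.43 (*Actc1* lowest at 0.23, *Tnni3* highest at 0.60). On the deposited normalized values 0 of the 10 were higher, with a median of 0.18 and 2 of them negative, quantile normalization gave 0 and 0.18, and the slide row block gave 0 and 0.36. Without NEXN-S437E replicate 2 or 3, 1 of 10 was higher. Set against each gene's NEXN-WT mean, these markers averaged −0.35, 0.18 and 0.17 in NEXN-WT, with replicate 1 apart, and 0.40, 0.49 and 0.44 in NEXN-S437E. Their summed level ranged from 11.3 to 11.7 in NEXN-WT and from 11.9 to 12.0 in NEXN-S437E. Of the fibroblast markers 7 of 10 were lower, with a median of −0.82 (*Col1a1* −1.82 to *Gsn* 0.24) and sums of 9.98 to 10.5 and of 9.74 to 9.81. Of the markers of activated fibroblasts 8 of 9 were lower, with a median of −2.71 (*Comp* −4.11 to *Acta2* 0.04) and sums of 7.19 to 8.38 and of 6.15 to 6.83. The fibroblast lists hold genes that are also cargo, among them *Col1a1* and *Postn*, so they are no separate measurement of those cells. Their part in the differences of the pathway lists was not tested.

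Plasma cells, which carry much ER, and lymphocytes were followed by their markers as well. *Jchain*, a plasma cell marker, was the lowest of 5 tested B and plasma cell markers, well above background on all NEXN-WT arrays and on no NEXN-S437E array. With its NEXN-S437E level set at the floor used for *Col5a2*, which is no strict minimum, *Jchain* was 4.13-fold lower (adjusted p = 0.00172 for the measured difference, limma). It entered the test only through NEXN-WT, the group in which it was high, and with normexp or with the methods' t-test 0 markers of this list passed the adjusted threshold. Of these 5 the median was −0.61 (−0.09 with normexp), 3 were lower and 1 higher (*Tnfrsf17*, well above background on 1 of the 3 NEXN-WT arrays, which passed the detection filter only through NEXN-S437E), and *Cd79a*, *Ms4a1*, *Derl3* and *Pou2af1* did not pass that filter. On all 6 arrays 2 of these markers were well above background, and both were lower at the unadjusted threshold (median −0.69, 0 past the adjusted threshold). Of the T cell markers 6 of 8 were lower and 0 higher, at a median of −1.83, from *Cd3g* to *Cd247* at 0.36. With its NEXN-S437E level at the same floor, *Cd3g* was 2.18-fold lower (adjusted p = 0.00112 for the measured difference, limma). *Cd3g* and *Cd5* were well above background on no NEXN-S437E array and entered the test only through NEXN-WT, the group in which they were high. With both at the floor the median was −0.92. Among the 6 markers well above background on all 6 arrays 4 were lower, 2 passed the adjusted threshold and the median was −1.11. With normexp it was −0.24, 3 were lower and 1 passed the adjusted threshold, which 3 did in the main analysis, 1 without NEXN-WT replicate 2, NEXN-WT replicate 3 or NEXN-S437E replicate 3, and 0 with the methods' t-test. The summed levels were 0.56 to 1.03 and −0.10 to 0.09 for B and plasma cells, and 2.89 to 3.54 and 2.97 to 3.39 for T cells.

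Macrophage markers had 2 of 10 lower and 0 higher, with a median of −0.03 (*Fcgr1* −0.74 to *Cd68* 0.10), 5 of them negative, and sums of 7.64 to 8.03 and of 7.84 to 7.94. On the deposited and the quantile-normalized values all 10 were negative, with a median of −0.23 in each, and 2 were lower. Endothelial markers had 1 of 10 lower and 1 higher, with a median of 0.04 (*Cldn5* −0.39 to *Fabp4* 0.49) and sums of 8.52 to 8.87 and of 8.96 to 9.01. Their median was −0.10 without NEXN-WT replicate 1, with 7 of 10 negative, 0.16 without replicate 3 of that group, and −0.03 on the deposited values, where 0 were higher. The part of these cells in the values of the ER chaperones, which every cell type expresses, was not tested.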

How the data were processed

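Total RNA of 6 hearts was hybridised to single-colour Agilent arrays and read with Feature Extraction 10.7.1.1, per the labels and the file headers. The deposited intensities are linear processed signals, which the software had corrected for background and not normalized between arrays. The authors also deposited normalized log2 values in 6 columns of identical distribution, and the software behind that step is not given in the sources used here. Here log2 intensity minus each array's 75th percentile was used, spots of a probe were averaged, and outlier and control spots were left out. The 22998 probes whose spots were well above background throughout at least 1 group were fitted with limma 3.58.1 in R 4.3.3 with Benjamini-Hochberg adjustment over all of them. A gene was represented by its probe of the highest mean. Scripts were tested on simulated data.

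The members and lists were chosen with earlier results of these data known. The text names every member with all its probes, the 3 genes of smallest unadjusted p in each pathway list, the 5 genes most like the members' mean, and the extremes of each marker list. Other genes named were chosen after their values were seen. Alternatives covered the normalization, the detection filter, the methods' t-test, replicate and slide row blocks, weights and each left-out array. P-values from limma set the difference between the groups against the spread between arrays, which limma moderates with the spread of all tested probes. The number of arrays (3 a group, from 3 animals) limits the precision. Probe coordinates are those of mm9 in the files, and no annotation of that build was used, so exons and introns are not given. Promoters came from RefSeq (GRCm38.p6).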

Additional observations from a re-analysis of the deposited data

How the results depend on the processing

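Of 270 values of member probes under the alternatives, 219 kept their direction and their side of the unadjusted threshold, 29 changed sign, 16 moved past the threshold and 6 fell back from it. Of 701 such values of the pathway genes named, 560 kept both, 34 moved past the threshold, 106 fell back from it and 1 changed sign (*Dcn*, 0.041 with array weights). Of 220 list medians 38 moved by more than the spread between replicates. The cause of each change was not tested.

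The number of member probes past the unadjusted threshold downward was 1 in the main analysis, and shares of all probes are in brackets. It was 2 with quantile normalization (8.13%), a percentile over detected probes (8.57%), the deposited values (8.12%), the methods' t-test (5.16%) and array weights. It was 3 with normexp (6.54%) and 0 without a filter on dim probes (2.78%). The number upward, 0 in the main analysis, was 1 with the methods' t-test (8.50%) and with an intensity trend (11.5%). It was 3 with array weights, where 2 (*Hspa5* A_55_P2076772 and *Pdia4*) passed the adjusted threshold, as 16.6% of all probes did (13.8% were lower and 21.3% higher at the unadjusted one). Leaving out 1 array gave 0 to 1 downward (4.82% to 8.55%) and 0 to 1 upward (5.58% to 12.9%).

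Replicate numbers do not pair the arrays (correlations of the deviations −0.15, −0.03 and −0.18), and the replicate block gave 0 member probes downward (6.08% of all probes). The differences themselves are the same with this block by construction.

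The sign changed with the slide row block for *Hspa5* A_55_P2076772 (−0.12), *Pdia6* (0.22), *P4hb* (0.031), *Creld2* (0.079) and *Manf* A_51_P418168 (−0.093), and with array weights for *Hsp90b1* (0.21), *Pdia3* A_66_P129730 (0.027), *Calr* (−0.042) and *Manf* A_51_P418168 (−0.021) and A_66_P135155 (0.031). *Calr* and *Manf* A_51_P418168 were −0.12 and −0.075 with quantile normalization and with the deposited values, −0.054 and −0.067 with normexp, and −0.040 and −0.068 with the percentile over detected probes. Leaving out 1 array gave −0.16 to 0.12 for *Hsp90b1*, −0.40 to 0.0038 for *Pdia3* A_66_P129730, −0.16 to 0.074 for *Pdia6*, −0.047 to 0.10 for *Calr*, −0.11 to 0.0033 for *Creld2* and −0.064 to 0.061 for *Manf* A_51_P418168.

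Over all probes, 37 passed the adjusted threshold, against 7 without the filter, 80 with an intensity trend, 0 with the methods' t-test, 3820 with array weights, and, with 1 NEXN-WT array left out, 127 (replicate 1) and 12 (replicate 2). Of the cargo genes, 0 passed it, against 4 with an intensity trend, 17 with array weights and 8 without NEXN-WT replicate 1. With the detected percentile, 1972 probes were lower and 1804 higher, and with the deposited values 1868 and 1760. Signals of the 15 tested member probes ran from 54.5 to 16902, and their standard errors from 0.13 to 0.34. Differences well above their standard errors could still miss the unadjusted threshold, as for *Pdia4* (−0.32, SE 0.15) and *Canx* A_52_P337679 (0.40, SE 0.18). A member that did not pass is therefore not shown to be unchanged.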
